A study of Mus musculus with 81 samples.

Results

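Sox proteins are transcription factors that bind DNA through a shared domain, the HMG box, and are sorted into subgroups by its sequence. The 6 genes described here are Sox9 of subgroup E, Sox5 and Sox6 of subgroup D, and Sox4, Sox11 and Sox12 of subgroup C. They were taken by symbol, 6 of the 22869 genes measured and 6 of the 19 Sox genes among these. Each was represented by its transcript with the highest mean over cells. The cells were 81 single cells of pancreata from CD1 mouse embryos, wild type, with no treatment named in the labels, at embryonic day 13.5. The labels give 1 group and name no animals, so the 81 cells count as 1 sample, no test was made, and each SD is a spread over cells.

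In the embryonic pancreas SOX9 marks and maintains the progenitor cells of the epithelium, and in other tissues it drives cartilage formation together with SOX5 and SOX6, which lack an activation domain of their own. The SOXC proteins are widespread in embryonic progenitors, neurons and mesenchyme, and SOX4 is needed in the mouse for the formation of islet cells. Pancreatic mesenchyme surrounds the epithelium and supplies growth signals to it.

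The stretch of the HMG box that opens with the amino acids PMNAF in all members shows how the 6 genes are related. Below, 60 bases of each coding sequence are given 5′ to 3′ from the GENCODE vM21 transcripts of GRCm38, and capitals mark the 29 bases that are identical in all 6 genes.
Sox9: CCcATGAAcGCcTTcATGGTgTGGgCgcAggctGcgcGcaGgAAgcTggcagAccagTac
Sox5: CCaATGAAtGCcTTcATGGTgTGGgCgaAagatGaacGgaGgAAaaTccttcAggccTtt
Sox6: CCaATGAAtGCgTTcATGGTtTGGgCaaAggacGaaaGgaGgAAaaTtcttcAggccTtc
Sox4: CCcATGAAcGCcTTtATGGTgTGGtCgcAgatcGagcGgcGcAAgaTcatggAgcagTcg
Sox11: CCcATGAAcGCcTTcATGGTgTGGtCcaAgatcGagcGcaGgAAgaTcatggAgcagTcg
Sox12: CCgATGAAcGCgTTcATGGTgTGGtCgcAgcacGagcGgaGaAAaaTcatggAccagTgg

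Sox4 and Sox11 shared 54 of these 60 bases and Sox5 and Sox6 shared 52, while Sox9 shared 45 with Sox11 and 36 with Sox6. No perfect match of 28 bases or more was found between the transcripts of any 2 members. Outside the family, 54.1% of the 50-base windows of the GENCODE Sox4 transcript, of 4795 bases, also occur in the predicted gene Gm26735. The transcript behind the Sox4 values spans 2953 bases, and the share for it was not computed. How reads of the shared windows were counted is not known, so the level of Sox4 is uncertain. For the GENCODE transcript of Sox5 the share was 0.598%, and it was 0 for the other members.

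The values were read as RPKM, reads relative to transcript length and to the total reads of the cell, so levels can be compared between genes. An estimated median of 3.52M reads stood behind a cell, and 77 cells had between 1.66M and 5.39M. Depth was far lower in 4 cells: C43 had about 418.2K reads, C94 had 196.8K, C61 had 72.5K and C3 had 19.8K. A cell was counted as having a gene at 1 RPKM or more. At the median depth that stands for 14.6 reads of Sox9, 10.4 of Sox4, 29.8 of Sox11, 15.6 of Sox12, 24.6 of Sox5 and 28.5 of Sox6, while in C3 a single read of any member is far above it.

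Cells were classed from all other genes, with every Sox gene left out, and named from marker lists. This gave 4 epithelial-like cells (C43, C47, C82 and C95), 2 endocrine-like, 2 endothelial-like, 4 leukocyte-like and 68 mesenchymal-like cells, and C3 was left unnamed. In the epithelial-like cells 10 of 12 pan-epithelial markers reached the naming level, 10 RPKM in at least 50% of the cells, but so did 6 of 19 mesenchyme markers, Vim among them. Mesenchymal-like clusters rested on 4 to 10 of the 19. Some cells go against their class. C91 held Neurog3, Cdh1, Cldn6 and Epcam, C45 held 5 of 8 neural crest and glia markers at 10 RPKM, and C13 held Epcam and Krt8, yet all 3 cells clustered as mesenchymal-like. They are not the only ones, as another mesenchymal-like cell had a higher summed level of pan-epithelial markers than C13. No pair of libraries shared both index sequences, and no 2 columns held identical values. Any mixing of RNA between cells was not tested.

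Sox11 was the most widely detected and the most abundant member (chromosome 12, 28019133 to 28027583, mm9, minus strand). It was found in 79 of 81 cells (97.5%, exact 95% interval 91.4% to 99.7%) with a mean of 43.5 ± 42.8 RPKM, a median of 29.8 RPKM and a highest value of 235.7 RPKM in C67. Only C49 and C76, at 0.186 and 0.123 RPKM, lay below 1 RPKM. Its mean ranked 967 among the 22869 genes. Every interval of a share is an exact Clopper-Pearson one. For a share of 0 the limit given is instead 3 cells of the total, and both cover counting error alone.

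Sox4 was detected in 56 cells (69.1%, 57.9% to 78.9%) and Sox12 in 39 (48.1%, 36.9% to 59.5%). Sox4 (chromosome 13, 29042599 to 29045551, minus strand) averaged 6.06 ± 7.40 RPKM with a median of 3.05 RPKM. Its highest value was 32.3 RPKM in C19. Sox12 (chromosome 2, 152219348 to 152223782, minus strand) averaged 5.76 ± 10.1 RPKM with a median of 0.723 RPKM and reached 50.2 RPKM in C6. Sox4 and Sox12 thus had close means with unlike spreads: above 0, Sox4 was listed in 76 cells and Sox12 in 65.

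Among the SoxD genes Sox6 was the more frequent. Sox6 (chromosome 7, 122614858 to 123182258, minus strand) was found in 43 cells (53.1%, 41.7% to 64.3%), averaged 10.01 ± 16.1 RPKM with a median of 1.64 RPKM, and reached 69.1 RPKM in C41. Sox5 (chromosome 6, 143776945 to 144158088, minus strand) was found in 18 cells (22.2%, 13.7% to 32.8%) and averaged 2.50 ± 7.05 RPKM with a median of 0. Its top value, 50.3 RPKM, was in C67, which also held the highest Sox11. Where it was detected, Sox5 had a median of 8.74 RPKM and Sox6 a median of 13.3 RPKM.

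Sox9 was the member with the largest share of its sum in a few cells (chromosome 11, 112643524 to 112649071, plus strand). It averaged 14.8 ± 45.6 RPKM, the second highest mean of the 6, with a median of only 0.0771 RPKM, and the 5 highest cells held 68.4% of its sum. The corresponding share was 24.3% for Sox11, 27.4% for Sox4, 35.5% for Sox6, 39.5% for Sox12 and 59.2% for Sox5. Sox9 was detected in 29 cells (35.8%, 25.4% to 47.2%) and had 0 estimated reads in 33 cells.

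By mean the order was Sox11, Sox9, Sox6, Sox4, Sox12 and Sox5. No neighbours in this order differed by more than their SDs, the gap between Sox11 and Sox9 being 28.7 RPKM against SDs of 42.8 and 45.6 RPKM. Cell by cell the picture was clearer for some pairs. Sox11 was above Sox9 in 73 of 81 cells and below it in 8. Sox9 was above Sox6 in 28 cells and below it in 45, the reverse of their means. Sox12 was above Sox5 in 54 cells and below it in 17.

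**Figure D1:**
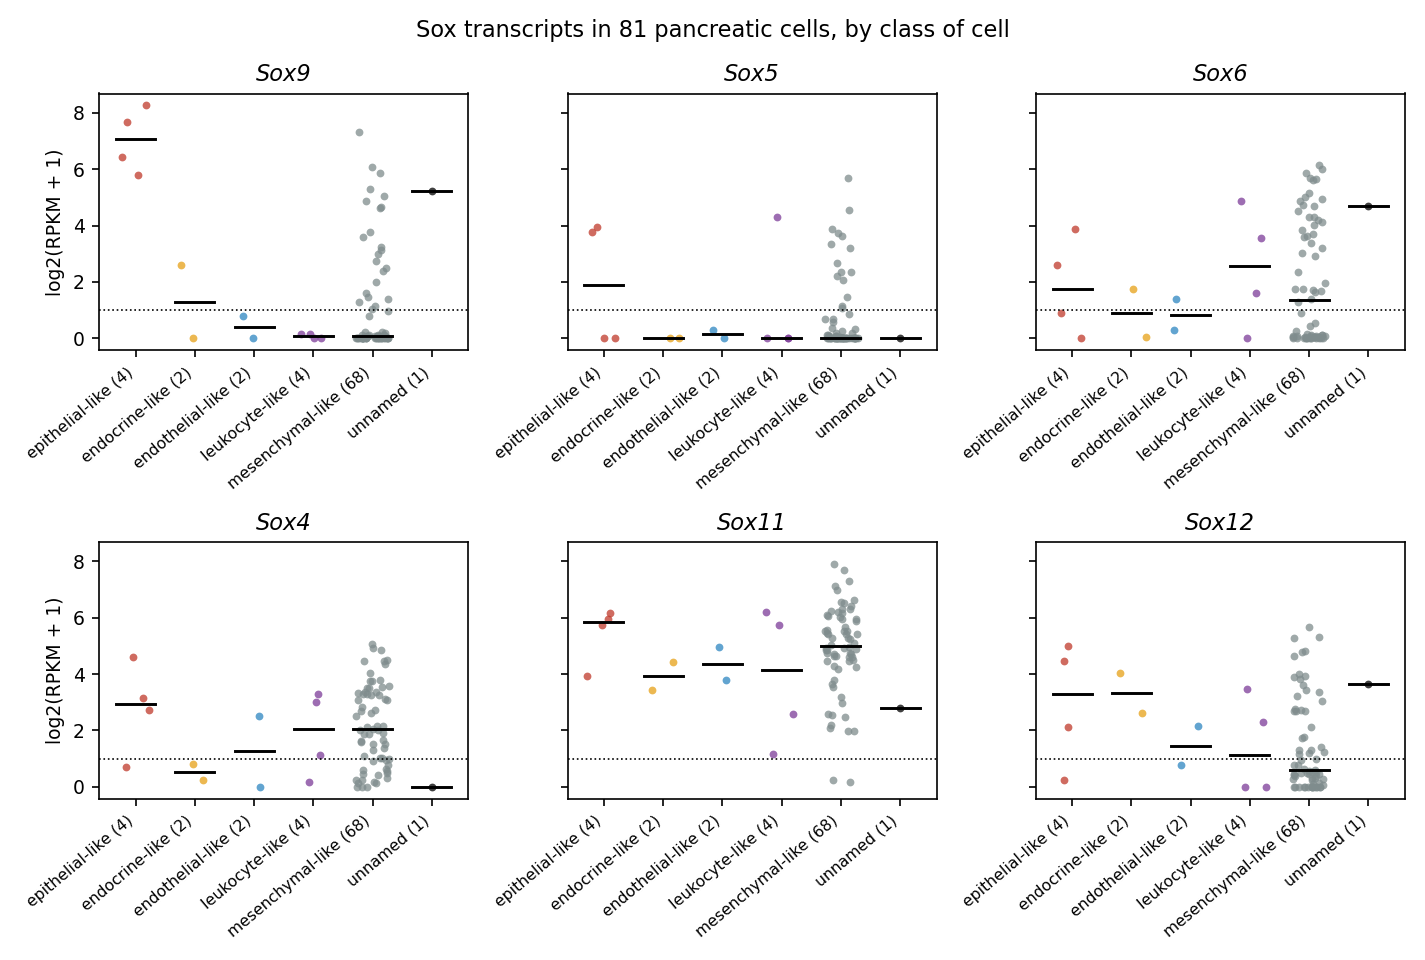
Level of each member in every cell, as log2(RPKM + 1), by class of cell with the number of cells in brackets. Each point is a cell, the bar is the class median and the dotted line marks 1 RPKM; the 4 epithelial-like cells are all high for Sox9, with 3 mesenchymal-like cells above the lowest of them, while Sox11 is high in nearly every class.

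The epithelial-like cells all had Sox9, at 86.2 RPKM in C43, 200.5 in C47, 306.7 in C82 and 53.7 in C95, with 149, 3868, 5841 and 1010 estimated reads behind these values. In the 68 mesenchymal-like cells Sox9 ran from 0 to 158.2 RPKM in C52, with a median of 0.0649 RPKM. The groups overlapped: 3 mesenchymal-like cells, C52, C20 and C39, were above the lowest epithelial-like cell. On the log2(RPKM + 1) scale Sox9 averaged 7.03 ± 1.13 in epithelial-like cells and 1.20 ± 1.89 in mesenchymal-like cells, a difference of 5.84. Of 13237 genes above 0 in at least 3 cells, 0.0453% had a larger difference. Without C13, C45 and C91 the difference was 5.80, and leaving out each epithelial-like cell in turn gave 5.42 to 6.26. When the cells were clustered on 500 variable genes, the shallow C94 also fell in the epithelial-like class. C94 had Sox9 at 0 RPKM, and the difference was then 4.39.

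The other members did not separate these classes. For Sox4, Sox11 and Sox12, at least 50 of the 68 mesenchymal-like cells were at or above the lowest epithelial-like cell. For Sox12 that lowest value was only 0.198 RPKM, in C95. For Sox5 and Sox6 the lowest epithelial-like value was 0, so all 68 cells were at or above it by construction. Counting a difference of 1 log2 unit or more, 20.9% of all genes were higher and 6.48% lower in epithelial-like cells. Of the 6 members Sox9, Sox12 and Sox5 were past that size, all higher. Sox12 was at 30.6, 21.02, 3.33 and 0.198 RPKM in cells C43, C47, C82 and C95, and in mesenchymal-like cells ran from 0 through a median of 0.523 to 50.2 RPKM. Its difference of 1.46 fell under 1 without C43 (0.79) or without C47 (0.96). Sox5 was at 12.8 and 14.5 RPKM in C43 and C47 and listed at 0 in C82 and C95, against a median of 0 and a top of 50.3 RPKM in mesenchymal-like cells. Its difference of 1.23 was 0.61 without C43 and 0.56 without C47, so both sizes rested on the shallow cell C43 and on C47.

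Sox11 was at 14.4, 52.7, 70.8 and 61.5 RPKM in cells C43, C47, C82 and C95, within the mesenchymal-like range of 0.123 to 235.7 RPKM, and its difference was 0.57. Without the shallow C43 it was 1.08. Sox4 was at 5.66, 0.651, 23.3 and 7.80 RPKM in the same epithelial-like cells, with a difference of 0.63, which was 0.03 without C82 and 1.32 without C47. Sox6 was at 5.004, 13.7, 0.858 and 0 RPKM. Its difference was -0.16, and the sign turned without C82 (0.15) or C95 (0.45) and with a pseudocount of 0.1 in place of 1 (0.15). With 4 epithelial-like cells the size of these differences is set by single cells.

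In the 8 cells of the endocrine-like, endothelial-like and leukocyte-like classes Sox9 was at 5.02 RPKM or below. The endocrine-like cells C24 and C56 had Sox9 at 5.02 and 0 RPKM. Their Sox11 was at 20.5 and 9.90 RPKM and their Sox12 at 5.09 and 15.6 RPKM. Sox4 was at 0.197 and 0.735 RPKM and Sox5 was listed at 0 in both. C91, which carried Neurog3, the gene that starts endocrine differentiation, at 258.0 RPKM, had Sox11 at 89.7, Sox12 at 14.02, Sox4 at 7.47 and Sox9 at 1.799 RPKM. Sox9 was under 1 RPKM in the 2 endothelial-like cells (0 in C22 and 0.715 in C72) and in the 4 leukocyte-like cells, where 0 of 4 allows a share of up to 75%. Sox11 was found in all 6 of these cells, at 29.8 and 12.9 RPKM in C22 and C72 and at 72.9, 5.02, 52.1 and 1.23 RPKM in C2, C31, C36 and C54. Among the leukocyte-like cells Sox6 was at 10.8 RPKM in C31 and 28.3 RPKM in C36, and Sox5 was the highest member in C54, at 18.9 RPKM. In the unnamed C3, where 5 of 12 leukocyte markers reached 10 RPKM, the Sox9 value of 36.6 RPKM stood for 3 reads and the Sox12 value of 11.4 RPKM for 1.

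**Figure D2:**
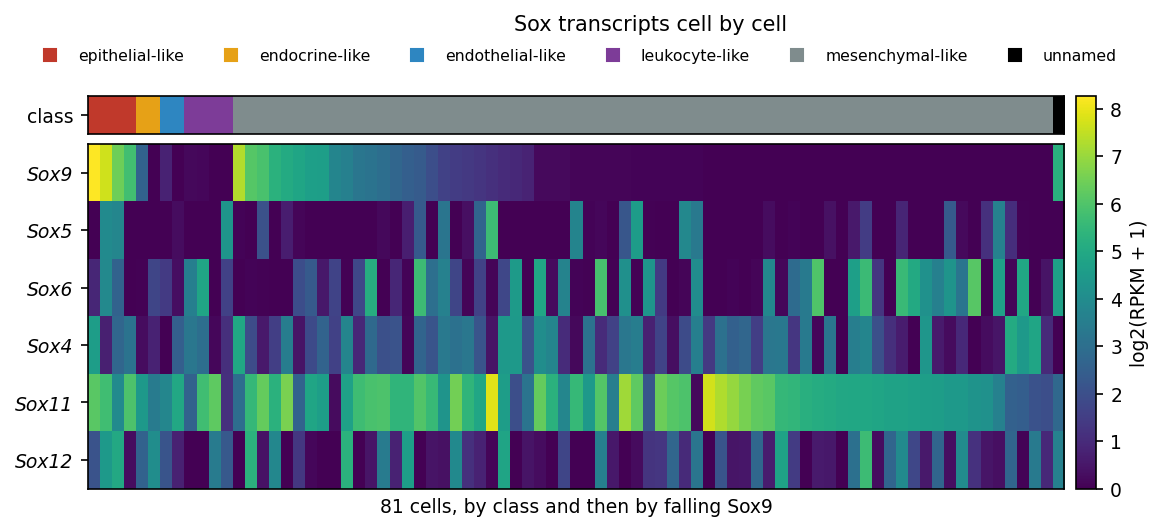
Members in rows and the 81 cells in columns, coloured by log2(RPKM + 1), with the class of each cell in the bar above. Within a class cells run from high to low Sox9; Sox9 fills the epithelial-like columns and the first part of the mesenchymal-like ones, while the other rows do not follow its order.

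In the mesenchymal-like class 23 of 68 cells had Sox9 (33.8%, 22.8% to 46.3%), and 22 did without C13, C45 and C91. The highest were C52 at 158.2, C20 at 66.7, C39 at 57.8, C1 at 37.99 and C55 at 32.2 RPKM, and these rested on 1657, 1287, 1193, 483 and 444 estimated reads. None of these 5 cells had any of the 12 pan-epithelial markers above 0, and 5 to 7 of the 19 mesenchyme markers reached 10 RPKM in each. That count of mesenchyme markers is not particular to the class. It was 5, 7, 3 and 5 in C43, C47, C82 and C95. In the endothelial-like C22 and C72 it was 7 and 4, and in the leukocyte-like C36 and C54 it was 5 in both. The summed level of the pan-epithelial markers ran from 398.4 to 1881 RPKM in epithelial-like cells. Over the mesenchymal-like class it ran from 0 to 595.7 RPKM in cells with Sox9, with a median of 0, and from 0 to 346.8 RPKM in cells without, with a median of 0.159 RPKM. The cell at 346.8 RPKM was none of C13 (184.3 RPKM), C45 (47.7 RPKM) and C91 (595.7 RPKM). Leaving those out thus does not remove every mesenchymal-like cell with epithelial markers. Epcam and Cdh1 were both at 0 in 18 of 23 cells with Sox9 and in 29 of 45 cells without. Col1a2 or Col3a1, collagen genes of mesenchyme, reached 10 RPKM in all 23 cells with Sox9 and in 44 of 45 without. The same held in every epithelial-like, endocrine-like, endothelial-like and leukocyte-like cell, so this level does not tell the classes apart.

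Library indices moved with low Sox9 counts, in a way shown by the plot of reads and indices. Each library carries 1 of 12 first and 1 of 8 second index sequences, and 38 of the other cells shared either one with an epithelial-like cell while 39 shared none. Between 1 and 4 Sox9 reads were estimated in 14 of the 38 cells and in 3 of the 39. At 1 RPKM the shares ran the other way, with Sox9 in 5 of 38 cells that shared an index (13.2%) and in 20 of 39 that shared none (51.3%). Within the mesenchymal-like class the counts were 4 of 33 (12.1%) and 19 of 35 (54.3%). The part of index sharing in these counts was not tested.

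**Figure D3:**
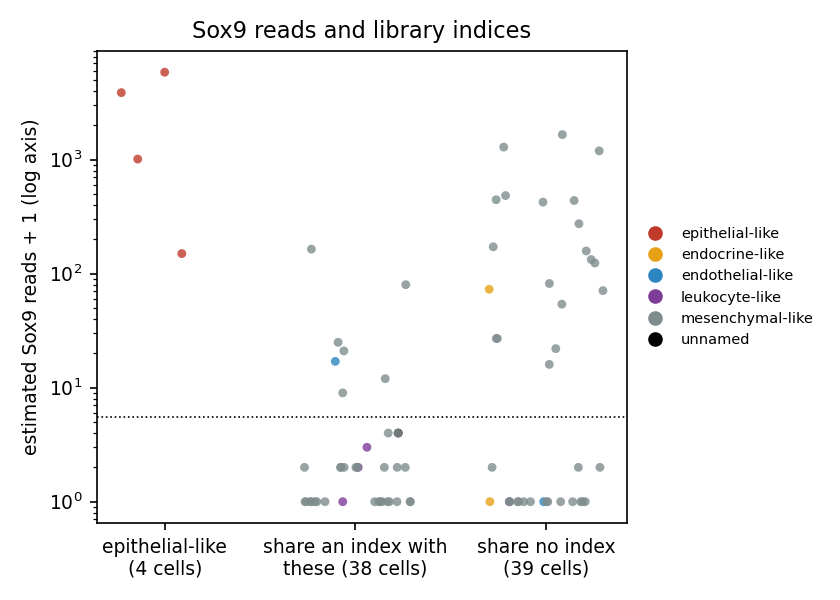
Estimated Sox9 reads per cell plus 1, on a log axis, for the epithelial-like cells, the cells that share a first or second library index with one of them, and the cells that share none. Points are cells coloured by class and the dotted line separates 4 reads from 5; 14 cells that share an index hold 1 to 4 reads, against 3 that share none.

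Within the mesenchymal-like class the members were counted by cluster. In the cluster of 14 cells led by the mitosis genes Cenpa, Cdca8 and Ccnb1, 6 cells had Sox9, 10 had Sox6, 8 had Sox12 and 5 had Sox5. In the cluster of 31 cells the counts were 13, 13, 14 and 6. In the cluster of 15 cells they were 4, 7, 5 and 2, and 13 of the 15 had Sox4. In the cluster of 5 cells led by Dhrs3, Cpe and Dcn, none had Sox9 and 4 had Sox6, whose median there was 18.5 RPKM. None of the 3 cells of the smallest cluster had Sox9 or Sox12. Clusters of this size leave wide intervals, and no difference between them was tested.

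Cells usually held several members, with a median of 3 of the 6 per cell, 4.5 in epithelial-like cells and 3 in mesenchymal-like cells. In all, 65 of 81 cells had at least 3. C43 had all 6, the cells C6, C16, C30, C46, C47, C54, C60 and C91 had 5, and C14 and C94 had 1. The member with the highest RPKM was Sox11 in 56 cells, Sox6 in 10, Sox9 in 8, Sox12 in 4, Sox4 in 2 and Sox5 in 1. The 8 led by Sox9 were C43, C47 and C82 of the epithelial-like class, C20, C49, C52 and C63 of the mesenchymal-like class, and C3.

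Co-detection was counted for each pair. Sox4 was found in 21 of 29 cells with Sox9 and in 35 of 52 without, Sox12 in 14 of 29 and in 25 of 52, Sox5 in 7 of 29 and in 11 of 52, and Sox6 in 14 of 29 and in 29 of 52. The cartilage partners Sox5 and Sox6 were found together in 11 cells, while 32 cells had Sox6 without Sox5 and 7 had Sox5 without Sox6. All 3 of Sox9, Sox5 and Sox6 were present in C16, C30, C43, C46 and C47. The SoxC genes were all present in 23 cells. Over the 81 cells, Spearman's rho between members lay between -0.23 for Sox11 with Sox6 and 0.12 for Sox5 with Sox6. These are descriptions over cells that differ in depth.

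Genes tied to these factors in other work were examined as 4 lists, first between epithelial-like and mesenchymal-like cells. Over all 13237 genes the median difference was -0.00375 log2 units. Of 12 genes tested in the SOX9 pancreatic progenitor network, 7 were at least 1 log2 unit higher in epithelial-like cells and 1 was lower, with a list median of 1.43, beside the 20.9% and 6.48% of all genes. Among the higher ones were Spp1, Foxa2, Nkx6-1, Notch1, Fgfr2 and Prox1. Spp1, which encodes osteopontin, was at 209.6 in C43, 501.8 in C47, 45.3 in C82 and 210.6 RPKM in C95 and was found in 1 of 68 mesenchymal-like cells. Nkx6-1, a progenitor and beta cell factor, was found in all 4 epithelial-like cells, at 49.1, 1.90, 9.79 and 1.71 RPKM, and in 1 mesenchymal-like cell. The lower one was Tead1, a DNA-binding partner of YAP1, with a difference of -1.66. Pdx1, the main regulator of pancreatic identity, was found in C43 only, at 86.9 RPKM, and Ptf1a was listed at 0 in all cells. Leaving out each epithelial-like cell in turn gave 7 or 8 higher genes.

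Of 10 tested genes of the SOX9 cartilage programme 3 were higher in epithelial-like cells and none was lower, beside 20.9% and 6.48% of all genes, with a list median of 0.05. Col2a1, the main cartilage collagen and a direct SOX9 target, was at 30.9, 0.913, 8.39 and 11.4 RPKM in cells C43, C47, C82 and C95 and was found in 4 of 68 mesenchymal-like cells, a difference of 2.94. The other 2, Col11a2 at 24.7 RPKM and Hapln1 at 24.03 RPKM, reached 1 RPKM in the shallow C43 alone among the epithelial-like cells, and without C43 the count was 1. Among genes of the list with the highest means, Col9a2 was found in 3 of 4 epithelial-like and 34 of 68 mesenchymal-like cells, Trps1 in 2 and 38, Col11a1 in 0 and 19, and Nkx3-2, a visceral mesenchyme factor, in 0 and 13.

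The 11 tested SOXC targets and partners had 2 higher and 2 lower genes in epithelial-like cells, beside the same 20.9% and 6.48%, with a median of -0.12. The share of higher genes was thus near that of all genes. Tead2, a SOXC target in mouse embryos and a partner of YAP1, was at 182.4, 118.0, 90.6 and 161.0 RPKM in cells C43, C47, C82 and C95 and averaged 7.07 ± 0.45 log2 units there, against 4.25 ± 2.32 in mesenchymal-like cells. Marcks, which encodes a membrane-bound kinase substrate, had a difference of -1.46, and Mex3a, an RNA-binding protein gene, one of -1.78. Marcksl1 was found in all 81 cells and the tubulin regulator Stmn1 in 79. The count of higher genes was 1 without C43 or without C95. Of 10 tested genes of endocrine differentiation 2 were higher, Isl1 and Nkx2-2, a share also near the 20.9% of all genes, with a median of -0.02, and the count was 1 without C47. Isl1 is also active in pancreatic mesenchyme and was found in 19 of 68 mesenchymal-like cells.

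Within the mesenchymal-like class few listed genes were 1 log2 unit apart between cells with and without a member. Tested were 10 cartilage, 12 progenitor network, 11 SOXC and 10 endocrine genes. Counts this small cannot be told apart from the shares of all genes given for each split. Between the 23 cells with Sox9 and the 45 without, 2.76% of all genes were at least 1 log2 unit higher and 1.17% lower. Of the listed genes 1 was past that size, Tead2, which averaged 5.28 ± 1.75 log2 units in cells with Sox9 and 3.73 ± 2.42 in cells without, and was found in 22 of 23 and in 35 of 45 cells. None of the tested cartilage genes was, and Col2a1 was found in 0 of 23 cells with Sox9 and in 4 of 45 without. Median depth was 3.61M reads in cells with Sox9 and 3.51M in cells without.

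For Sox6, 35 cells with it stood against 33 without, and 2.71% of all genes were higher and 0.718% lower. Yap1, the transcriptional effector of the Hippo pathway, averaged 4.81 ± 1.496 log2 units in cells with Sox6 and 3.70 ± 2.40 in cells without, and Tead2 averaged 4.77 ± 1.85 and 3.70 ± 2.66. Cells with Sox6 were also deeper, with a median of 3.97M reads against 3.33M, and the part of depth was not tested. For Sox5, 15 cells stood against 53, with 4.43% of genes higher and 1.76% lower. Nrp1, a receptor for semaphorins and VEGF, averaged 3.599 ± 2.01 log2 units in cells with Sox5 and 1.69 ± 1.84 in cells without. Trps1 averaged 1.23 ± 1.52 with Sox5 and 2.49 ± 2.09 without, and Tead1 averaged 2.81 ± 1.499 and 3.87 ± 1.46.

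No listed gene was past 1 log2 unit for Sox4 or Sox12. The 49 cells with Sox4 and the 19 without gave 1.03% of all genes higher and 3.55% lower, and for Sox12, with 30 cells against 38, these shares were 2.12% and 0.854%. Tead2, the SOXC target, was among the genes that stayed under that size in both. All of these splits compare cells of 1 sample, and for every gene named in them the SD on at least 1 side exceeded the difference.

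The Sox genes outside the 6 were mostly confined to a few cells, as the plot of the other Sox genes shows. Of the 13, Sox1, Sox3, Sox14 and Sox21 were listed at 0 in all 81 cells, which allows a share of up to 3.70%. The SoxF genes Sox18, Sox7 and Sox17, regulators of vessel development, reached 1 RPKM in C22 and C72 only, the endothelial-like cells, whose class was formed without them. Sox18 was at 58.7 RPKM in C22 and 27.2 RPKM in C72, Sox7 at 12.2 and 5.04 RPKM, and Sox17 at 5.01 and 5.14 RPKM. Sox13, the third SoxD gene, was found in 15 cells, 12 of them mesenchymal-like, with its top value of 31.5 RPKM in C22. Sox10, the neural crest and glial gene of subgroup E, was found only in C45, at 31.9 RPKM, the cell with neural crest and glia markers.

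**Figure D4:**
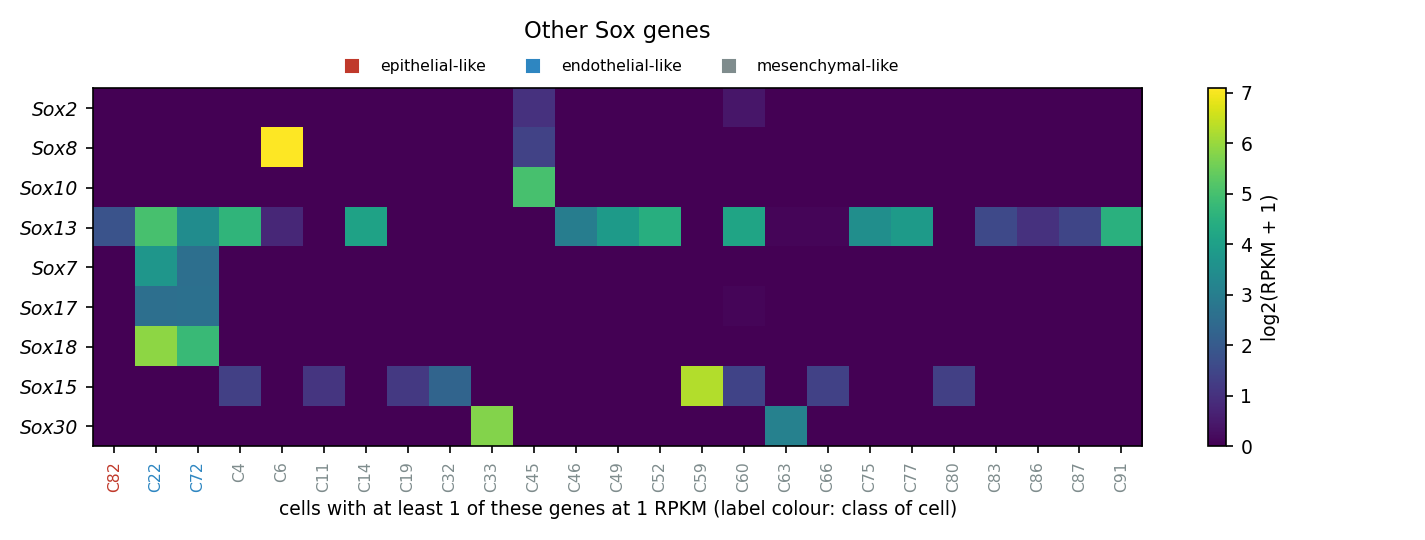
Sox genes other than the 6 members that reached 1 RPKM in at least 1 cell, coloured by log2(RPKM + 1), in the cells where any of them did so. Sox7, Sox17 and Sox18 share the columns of C22 and C72, Sox10 is in C45 alone, and Sox13 is spread over 15 cells.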

How the data were processed

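A microfluidic device held the dissociated cells, and cDNA was made with a SMARTer kit and libraries with a Nextera XT kit, per the labels' protocols. CASAVA 1.8.2 and the build mm9 are named in the submitters' processing notes; the sources used here do not give the aligner, counter or annotation. The authors' table holds 29510 transcript rows for 81 cells. Its unit is not stated and was read as RPKM computed by the authors, because deposited values multiplied by length come out as whole reads: a median of 80.1% of low values per cell lay within 0.15 of a whole read, and 98.4% of low values of the 6 members. One read's worth was fitted in each cell so that low values come out whole, and it gave the estimated reads. The check can thus show scaling by length but not by total reads, which the estimated reads take as given.

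Genes took their transcript row of highest mean; Sox5 and Sox6 have 3 rows each, and those of Sox6 were over 10% apart from their usual ratio in 7 of 66 cells. Classes came from 10 Ward clusters on 10 principal components of 1000 variable genes (scikit-learn 1.9.0), named from markers. Differences are on the log2(RPKM + 1) scale, which understates changes of low genes. Genes above 0 in at least 3 cells were compared. Named genes are the members, other detected Sox genes, the 3 genes of highest Spearman rho per member and up to 4 of highest mean per list. Listed genes outside these, such as Nkx6-1, Col2a1, Pdx1 and Nrp1, were chosen after their values were seen, as were C13, C45 and C91. The members and lists were chosen with earlier results of these data known. Only the worth of 1 read and differences of means on the log2 scale were tested on simulated data. The simulated differences were for well expressed genes in groups of equal size, unlike the classes here. Classing, naming, detection and index counts were not simulated. No doublet caller was run on 81 cells. The reads carry no molecular identifiers, so they are not independent molecules. Some items are not reported here.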

Additional observations from a re-analysis of the deposited data

How the results depend on the processing

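Of 194 values recomputed under alternatives, 174 moved by less than the spread or stayed within 1.5 times and 20 moved further. The spread over cells is wide, so being among the 174 does not show that a value is stable. Among them were the Sox9 level, 14.8 RPKM as a mean and 0.0771 RPKM as a median, and the Sox4 difference. The latter was 0.63 in the main setting and 0.005 with 500 variable genes. No difference of 1 log2 unit or more changed sign, but the Sox6 difference of -0.16 did, at 0.15 with a pseudocount of 0.1, 0.15 without C82 and 0.45 without C95. The counts of cells with a member depended on the level of detection. Counting any value above 0, Sox9 was in 48 cells, Sox12 in 65, Sox5 in 35 and Sox6 in 66. At 10 RPKM Sox9 was in 15, Sox4 in 16, Sox12 in 15, Sox5 in 8 and Sox6 in 26 cells, and at least 3 members were in 17 cells. In the mesenchymal-like class Sox9 was in 39 cells above 0 and in 10 at 10 RPKM. The Sox9 difference between epithelial-like and mesenchymal-like cells was 7.88 with a pseudocount of 0.1 and 3.42 with a pseudocount of 10. Summing the rows of Sox6, which share reads, gave a mean of 29.3 RPKM. With a pseudocount of 0.1, 2 listed genes were past 1 log2 unit in the Sox9 split. Leaving out each epithelial-like cell in turn gave 1 to 4 higher cartilage genes, 1 to 3 higher SOXC genes and 1 to 2 higher endocrine genes. The values without C13, C45 and C91, the threshold of 5 reads and the repeated counts of listed genes were chosen after the data had been seen. Classes were the same for all 81 cells with k-means or a naming level of 5 or 20 RPKM, for 78 with 500 variable genes and for 79 with 2000. No paired analysis was possible because the labels give 1 group. In the 4 shallow cells a value of 0 limits little.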

Other observations

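Further Sox transcripts were high in single mesenchymal-like cells. Sox8, the third SoxE gene, was at 135.6 RPKM in C6 and at 1.65 RPKM in C45, and in C6 it exceeded the same cell's Sox12 value of 50.2 RPKM, which was the highest Sox12 of all cells. Sox15 was found in 8 mesenchymal-like cells, with 76.9 RPKM in C59 and at most 3.90 RPKM elsewhere. Sox30, known from spermatogenesis, was at 53.6 RPKM in C33 and at 7.66 RPKM in C63. Sox2 was at 1.01 RPKM in C45. Each of these high values is that of 1 library.

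The genes whose levels most resembled each member over the 81 cells did so weakly, among 6289 or 6290 genes found in at least 20 cells. For Sox9 they were Gabpa (Spearman's rho 0.42), 2310009A05Rik (0.40) and Ppp4c (0.38), and for Sox4 they were Cgnl1 (0.36), Ets2 (0.35) and Midn (0.34). For Sox11 they were Rpl7 and Itch (both 0.41) and Esco1 (0.39), and for Sox12 Zfp516 (0.41), Uty (0.38) and Fam160b1 (0.37). Sox5 had Irs1 and Gng11 (both 0.36) and Med20 (0.35), and Sox6 had Zfp263 (0.42), Dlk1 (0.41) and Col23a1 (0.40). Within the mesenchymal-like class Cgnl1 and Ets2 held ranks 1 and 2 for Sox4 and Itch and Col23a1 held rank 2 for Sox11 and Sox6, while Irs1 fell to rank 58 for Sox5. Cells share library depth, and these values are descriptions.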
